A study of Mus musculus with 24 samples.

Results

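Transcripts of hippocampal astrocytes were compared between C57BL/6J (B6) and DBA/2J (D2) mice, the inbred strains of this data set whose nuclei were profiled one by one for RNA and for accessible chromatin. Methylomes of single nuclei from these and other strains were not analysed here. The astrocytes were the nuclei the depositors had assigned to their astrocyte class, and the comparison was restricted to gene symbols with at least 1 count in the astrocytes of each strain. Of the 33902 symbols in the table, 19865 met that condition, and 13753 of these passed a filter on low counts and were tested. Symbols with counts in 1 strain only were left out because the table did not hold the same set of symbols for both strains.

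All animals were males of 10 to 16 weeks, the labels name no treatment, and the tissue was the ventral hippocampus. Each strain gave 2 single-nucleus RNA libraries, numbered 2 and 3 in the table, and about 2 animals were pooled for each replicate. Nuclei had been sorted on the neuronal protein NeuN and mixed at 75% positive to 25% negative, so that the astrocytes came from the smaller fraction. Separate libraries of accessible chromatin (snATAC) were made from nuclei of the same strains that had been sorted on a DNA dye without selection on NeuN. Nothing in the labels says that the animals of a strain came from separate litters or cages, and p-values measure only the spread between these libraries. With 2 libraries against 2, an exact permutation test of 1 transcript could not go below p = 0.33, and the tests given here borrow the spread across all transcripts.

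Astrocytes clear glutamate and potassium from around synapses, supply neurons with lactate and lipids, and are coupled to each other through gap junctions. They sense transmitters through metabotropic receptors, respond to glucocorticoids, and take on a reactive state in injury and inflammation. Their identity is held by transcription factors of the Sox, Nfi and nuclear receptor families, and by Notch and BMP signalling.

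The astrocyte columns held 3109079 and 3165829 counts in the B6 libraries and 3559331 and 3755687 counts in the D2 libraries, so that both D2 libraries were the deeper ones. Levels are given in CPM, counts scaled to a common library size. Across 10163 transcripts averaging 10 CPM or more, the log2 CPM of libraries correlated at 0.982 and 0.985 within a strain and at 0.910 to 0.920 between strains, as a description across transcripts, which are not independent replicates. The markers of the labelled cell type were present: all 20 astrocyte identity genes had counts in every library, and their summed level was 19093 and 17079 CPM in B6 and 18229 and 18732 CPM in D2. Markers of other cell types were present at lower sums and several moved with strain. Those of excitatory neurons summed to 3019 and 3184 CPM in B6 and 2633 and 2131 CPM in D2, and those of inhibitory neurons to 552 and 562 CPM against 363 and 360 CPM. Oligodendrocyte markers summed to 469 and 435 CPM in B6 and 238 and 223 CPM in D2, and microglial markers to 305 and 294 CPM against 209 and 213 CPM. Oligodendrocyte precursor markers differed less, at 145 and 135 CPM against 131 and 120 CPM. The strains overlapped for endothelial, mural and leptomeningeal markers, at 271 and 314 CPM against 286 and 205 CPM. They also overlapped for ependymal markers (46.4 and 72.7 against 45.6 and 49.7 CPM) and stem cell markers (224 and 209 against 239 and 220 CPM). Fewer cells of a type and less RNA per cell cannot be told apart in such sums. The part of these other cells in the results below was not tested.

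The sets of symbols counted in the 2 strains were unequal. Of 3402 pseudogene symbols 3 had any count in B6 astrocytes, against 1866 in D2. For ribosomal and transfer RNA genes of the mitochondrion there were 80081 counts over 24 symbols in D2 astrocytes and no count in B6. Of the 7843 symbols with counts in 1 strain only, 57 symbols of B6 and 485 of D2 reached 50 counts, of which 47 and 24 were protein-coding. Some of these are older and newer names of 1 gene. The ubiquitin ligase gene March2 had 310 and 313 counts in B6 and 0 and 0 in D2, while its newer name Marchf2 had 0 and 0 against 355 and 334, and the septin gene Sept7 had 695 and 631 counts in B6 while Septin7 had 502 and 556 in D2. Symbols counted in D2 only held 4.13% of the counts of D2 astrocytes, and those counted in B6 only held 1.23% of those of B6. Such symbols stand just outside the comparison. Just inside it stands Rhbdl1, a rhomboid protease gene, which qualified through 1 count in D2 against 141 in B6.

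Strain was associated with a called difference in 2539 of 13753 transcripts (18.5%) by edgeR's quasi-likelihood test at an adjusted p under 0.05. D2 was the higher strain at 1105 (8.03%) and the lower one at 1434 (10.4%). A change of more than 1 on the log2 scale was shown by 328 of the higher and 615 of the lower transcripts. The median absolute log2 fold change of those called was 0.80, and that of all transcripts tested was 0.26, beside a median standard error of 0.20. DESeq2 called 1030 transcripts (7.12% of 14473 with an adjusted p), 407 (2.81%) higher and 623 (4.3%) lower. Without D2 library 3 the edgeR count was 1611. The 2 D2 libraries lay on one side of both B6 libraries for 57.7% of transcripts, 28.4% above and 29.4% below. Reads of each strain went to a reference of its own, and the sets of symbols differed as given above. Differences in RNA and differences in how reads were counted therefore cannot be told apart in these calls. The called members of a gene list are to be read beside 8.03% higher and 10.4% lower over all transcripts tested. In what follows a log2 fold change is always that of D2 over B6, ± marks its standard error, and for gene lists the counts of higher and lower members in DESeq2, and in edgeR among members without a same-strand overlap, stand in parentheses.

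**Figure D1:**
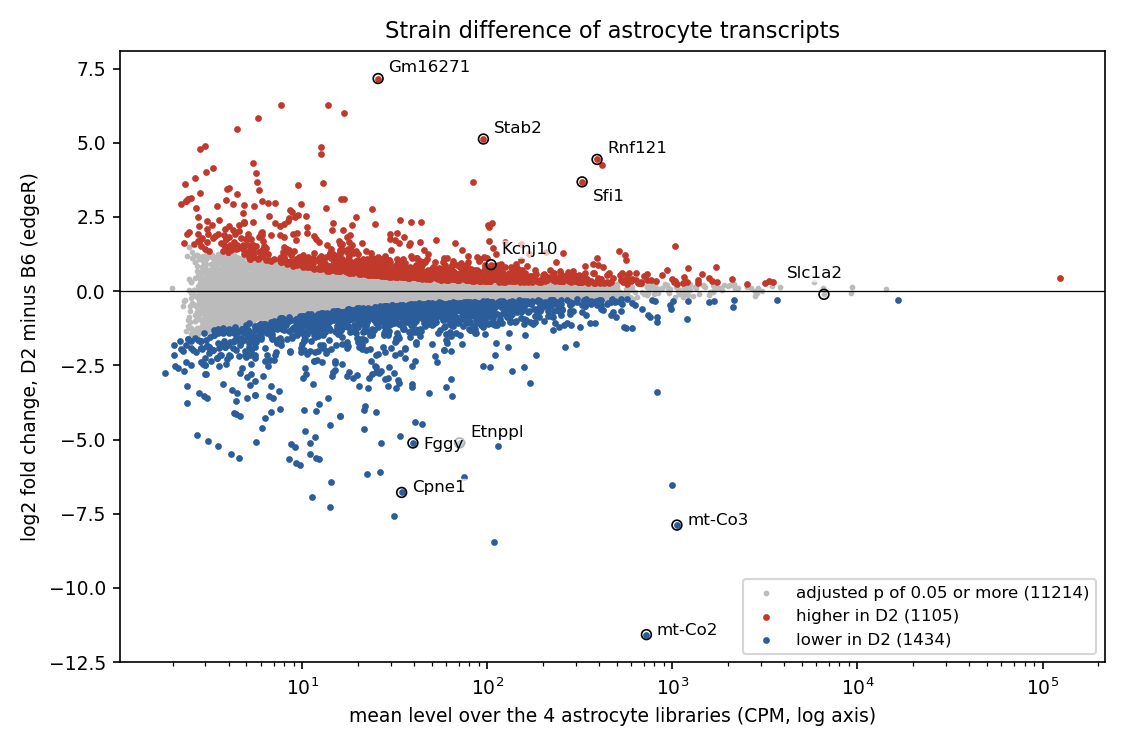
Strain difference of each of the 13753 tested astrocyte transcripts. The horizontal axis is the mean level over the 4 libraries in CPM on a log scale, the vertical axis the log2 fold change of D2 over B6, and coloured points are the 1105 higher and 1434 lower transcripts at an adjusted p under 0.05. Stab2, Rnf121, Sfi1 and Gm16271 lie far above 0 and Fggy, Etnppl, Cpne1, mt-Co2 and mt-Co3 far below it, while Slc1a2 lies near 0.

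The share called moved with abundance, from 12.9% of transcripts averaging under 10 CPM to 30.4% of the 1663 averaging 100 CPM or more. The filter asked for 3.06 CPM in 2 libraries, and 356 transcripts reached it in B6 alone and 189 in D2 alone. Of these 545, chosen in part by the difference itself, 302 (55.4%) were called, against 16.9% of the 13208 that reached it in a library of each strain. The values of such transcripts are a description only. They include all 49 tested transcripts with 1 to 3 counts in a strain. Long intergenic RNAs were called in 31.4% of 459 cases and antisense RNAs in 23.5% of 915, compared with 17.4% of 11832 protein-coding transcripts. Over the autosomes and the X the share ran from 13.4% on the X to 22.8% on chromosome 14, and on the Y 3 of 6 were called. Where a symbol overlapped another gene on the same strand the share was 24.9% of 3339, with 235 (7.04%) higher and 597 (17.9%) lower, and where none overlapped it was 16.3% of 10236, with 855 (8.35%) higher and 814 (7.95%) lower. A read over both genes cannot be assigned to one of them, so that overlapping symbols are named apart from the others among the largest changes. Overlaps were looked up in GENCODE vM21 only, where symbols counted in D2 such as Marchf2 and Septin7 have no single entry. A symbol free of overlap there may overlap a gene in the list used for D2, which was not tested. In the gene lists named members that overlap are pointed out, and for the mitochondrial list the number free of overlap is given.

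Among transcripts without such an overlap and with a mean of at least 10 CPM, the largest increase in a named protein-coding gene was that of Stab2, an endocytic receptor for hyaluronan best known from liver sinusoids, at chr10:86841198-87008025 on the minus strand of GRCm38. Stab2 stood at 6.48 and 4.09 CPM in the B6 libraries, against 167 and 203 CPM in those of D2 (log2 fold change 5.13, standard error 0.19, adjusted p = 6.36e-17). The ring-finger gene Rnf121, at chr7:102019137-102065469 on the minus strand, stood at 34 and 34.9 CPM in the B6 libraries, against 784 and 715 CPM in those of D2 (log2 fold change 4.44, standard error 0.12, adjusted p = 4.46e-20). For both genes the libraries of a strain were close to each other compared with the gap between strains. Syt10, a synaptotagmin that acts as a calcium sensor in secretion, stood at 0.973 and 5.98 CPM in the B6 libraries, against 31.2 and 29.2 CPM in those of D2, with 3.09 ± 0.33 on the log2 scale. Its B6 libraries differed widely from each other, yet both lay far below D2. The zinc-finger gene Zfp951 stood at 4.21 and 2.52 CPM in B6 against 26.7 and 31.5 CPM in D2 (3.11 ± 0.28), and the DNA ligase Lig4, which joins ends in double-strand break repair, at 4.21 and 1.89 CPM in B6 against 20.7 and 15 CPM in D2 (2.54 ± 0.35). Necab3, a neuronal calcium-binding protein gene, rose from 14.3 and 14.8 CPM in B6 to 82.5 and 63.3 CPM in D2 (adjusted p = 1.74e-10).

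The remaining 6 of the 12 largest increases were non-coding or unnamed transcripts. Gm47015, E330011O21Rik and 6330411D24Rik passed the filter through D2 alone, the first pair with 2 and 3 counts in B6 against 187 and 228 in D2. As ratios of summed counts scaled by library size this pair gave 85.4 (95% interval 23.3 to 711) and 69.4 (23.5 to 339), the intervals covering counting error only. 6330411D24Rik stood at 0.973 and 0.629 CPM in B6 against 21.3 and 27.5 CPM in D2, and Gm48606 at 10.7 and 13.2 CPM in B6 against 152 and 158 CPM in D2. A730036I17Rik stood at 5.51 and 6.29 CPM in B6 against 32.4 and 34.3 CPM in D2. Gm16268 stood at 5.19 and 1.57 CPM in B6 against 23.1 and 23.8 CPM in D2 and lies beside Stab2 on chromosome 10, on the opposite strand. The peak at the start of Gm16271, chr10:86971690-86972297, lies within the span of Stab2 given above, so that these increases share a region. Gm16271, which overlaps another annotated gene on the same strand, had 2 counts in B6 and 352 in D2. That is a ratio of 161 (44.2 to 1333), and it likewise passed the filter through D2 alone.

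Among transcripts without a same-strand overlap, the largest decreases in D2 outside the mitochondrial genome were those of Etnppl and Fggy. Etnppl encodes the lyase that breaks down phosphoethanolamine and is a known astrocyte transcript. At chr3:130617448-130637521 on the plus strand, it stood at 131 and 145 CPM in the B6 libraries, against 5.1 and 2.84 CPM in those of D2 (log2 fold change -5.11, standard error 0.20, adjusted p = 1.58e-16). Fggy, a carbohydrate kinase gene at chr4:95557507-95926939 on the plus strand, stood at 76.2 and 78 CPM in the B6 libraries, against 2.7 and 1.7 CPM in those of D2 (-5.11 ± 0.24 on the log2 scale). Nrros, which holds latent TGF-beta at the cell surface and is best known from microglia, stood at 54.1 and 27 CPM in B6 against 1.5 and 3.41 CPM in D2 (-4.01 ± 0.36). Microglial marker sums were also lower in D2, by the values given above, and the part of microglial RNA in the Nrros difference was not tested. Pttg1, the securin that guards sister chromatid separation, stood at 16.5 and 23.3 CPM in B6 against 0.900 and 0.568 CPM in D2 (-4.70 ± 0.43). The unnamed transcripts Gm12239, at 109.9 and 128 CPM in B6 against 9.3 and 11.1 CPM in D2, and D730045A05Rik, at 35.7 and 15.1 CPM in B6 against 1.8 and 2.27 CPM in D2, were lower likewise (-3.54 ± 0.17 and -3.61 ± 0.41). Gm15564 stood at 32.1 and 28.6 CPM in B6 against 1.8 and 1.42 CPM in D2. Gm20743 stood at 29.2 and 25.2 CPM in B6 against 2.4 and 0 CPM in D2, and its call was lost in DESeq2 (adjusted p = 0.177). Of these, Fggy, Pttg1, D730045A05Rik, Gm15564 and Gm20743 passed the filter through B6 alone, so that their decreases are a description.

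Of the 12 largest decreases 4 have near-identical copies elsewhere in the annotation, defined as at least 97% identity over at least 90 bases, and are uncertain for that reason. They are the mitochondrial transcripts mt-Co2 and mt-Nd3, treated with their kind further on, and Trim12a and Rpl29. Trim12a, a member of the Trim5 antiviral cluster, stood at 22.7 and 23 CPM in B6 against 0.900 and 0.568 CPM in D2. Its copy Trim12c moved the other way, with 48 and 49 counts in B6 and 113 and 103 in D2, while Trim5 had 9 and 9 against 2 and 1. Rpl29, a protein of the large ribosomal subunit with 32 annotated near-identical copies, stood at 41.5 and 39.9 CPM in B6 against 2.4 and 3.12 CPM in D2. All 4 passed the filter through B6 alone. As stated above, pseudogene symbols were counted in D2 and hardly in B6.

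A further 5 symbols in each direction were named from those that overlap another gene on the same strand, and their levels cannot be assigned to 1 gene with certainty. Sfi1, a centrosomal spindle-assembly gene at chr11:3131850-3193463, stood at 52.2 and 41.8 CPM in the B6 libraries, against 607 and 600.1 CPM in those of D2 (log2 fold change 3.68, standard error 0.12, adjusted p = 2.4e-18). Sv2c, a synaptic vesicle glycoprotein gene with 21 annotated near-identical copies of a part of it, stood at 5.19 and 6.92 CPM in B6 against 44.4 and 39.2 CPM in D2 (2.78 ± 0.23), Gm30624 at 0.648 and 1.26 CPM in B6 against 22.5 and 26.4 CPM in D2 and Gm38394 at 1.3 and 2.52 CPM in B6 against 18.3 and 29.8 CPM in D2. In the other direction Cpne1, a calcium-dependent phospholipid-binding copine, fell from 68.7 and 67.9 CPM in B6 to 0.300 and 0.851 CPM in D2. Pram1 had 391 counts in B6 and 2 in D2, a ratio of 214 for B6 over D2 (58.8 to 1773). Rhbdl1 had a ratio of 154 (27.3 to 6139), all intervals again covering counting error only. Gm30624 and Gm38394 passed the filter through D2 alone, and Cpne1, Pram1 and Rhbdl1 through B6 alone. The remaining decreases of this kind were the mitochondrial mt-Co3 and mt-Atp6 (log2 fold changes -7.88 and -6.54), treated with their kind below.

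All 13 protein-coding transcripts of the mitochondrial genome were called lower in D2 (DESeq2 0 and 9, without overlap 0 and 6 of 6). Only those 6 are free of a same-strand overlap, and mt-Co3 and mt-Atp6 are among the others. Their summed level was 10305 and 12010 CPM in B6 and 2627 and 1748 CPM in D2. The 7 with an annotated near-identical copy elsewhere had log2 fold changes from -11.57 to -1.23, and the 6 without one from -1.56 to -0.54, so that the ranges overlap. For mt-Co2, a subunit of cytochrome oxidase, 9081 counts in B6 stood against 3 in D2, a ratio of 3313 (1133 to 16069). Of the copies, Gm28438 had 0 and 0 counts in B6 and 244 and 139 in D2, and 5 others had at most 1 count in any library. Among the 13, mt-Co2, mt-Nd3 and mt-Nd4l passed the filter through B6 alone. Of the 6 without a copy DESeq2 called 2, and leaving out D2 library 3 took mt-Atp8, a subunit of ATP synthase, to -0.12 (adjusted p = 0.755). These transcripts are made outside the nucleus. The count of called transcripts over all genes was 2544 when these 13 were left out of the fit.

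**Figure D2:**
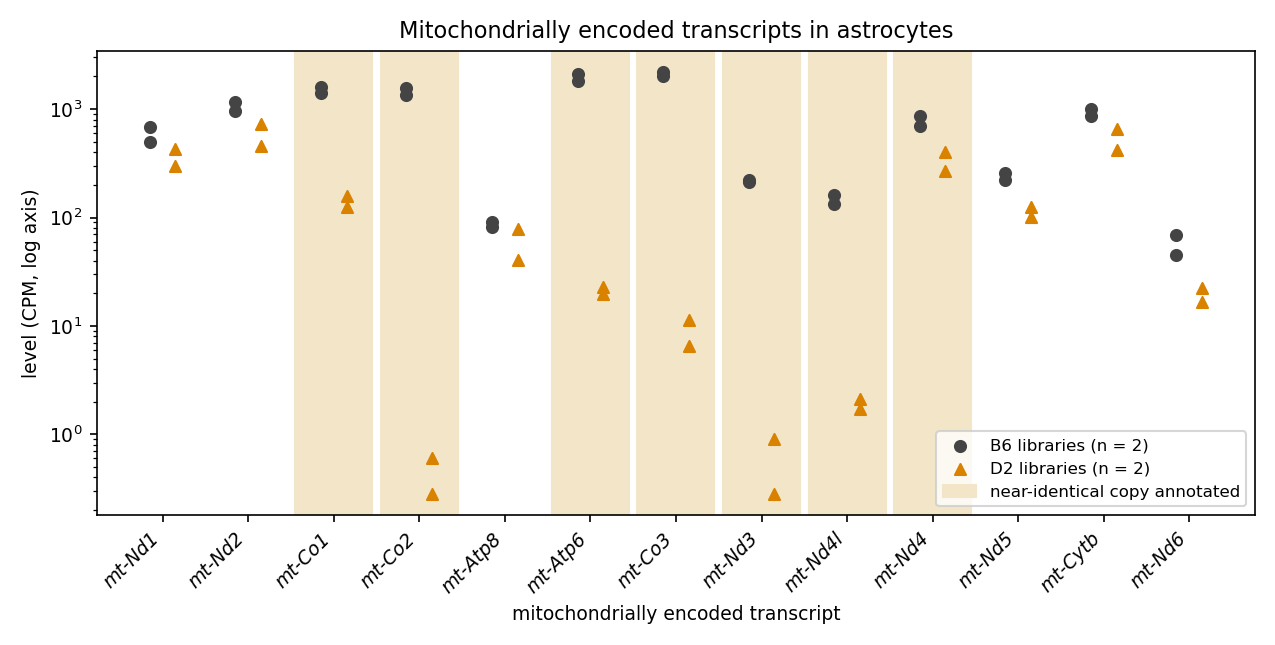
The 13 mitochondrially encoded transcripts in each astrocyte library, in CPM on a log axis. Each transcript has 2 points for B6 and 2 for D2, and shading marks the 7 with an annotated near-identical copy elsewhere. D2 points lie below B6 points for every transcript, by far the most for mt-Co2, mt-Nd3 and mt-Co3, which are shaded.

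Of the 20 genes that define astrocytes, 15 were not called, 3 were higher and 2 lower in D2 (DESeq2 3 and 1, without overlap 3 and 2 of 17). The main glutamate transporter Slc1a2 stood at 7422 and 6250.0 CPM in the B6 libraries, against 6373 and 6328 CPM in those of D2 (log2 fold change -0.11, standard error 0.08, adjusted p = 0.43), and the ranges of the strains overlapped. The water channel Aqp4 stood at 283 and 237 CPM in B6 against 264 and 330.3 CPM in D2 and was not called either (adjusted p = 0.25). Among those called, the fate-setting factor Sox9 stood at 100.2 and 98.4 CPM in B6 against 145 and 139.6 CPM in D2 (0.52 ± 0.11) and the gap junction protein Gjb6 (connexin 30) at 150.1 and 129.6 CPM in B6 against 72.6 and 77.7 CPM in D2 (-0.89 ± 0.12). The intermediate filament Gfap stood at 164 and 124 CPM in B6 against 99.9 and 108 CPM in D2 (adjusted p = 0.00738). The bicarbonate transporter Slc4a4 had a log2 fold change of 0.32 ± 0.09. Astrocyte-defining genes had 8 called higher and 1 lower without B6 library 2, 3 and 4 without B6 library 3, 4 and 1 without D2 library 2, and 2 and 2 without D2 library 3. Gfap was not called by DESeq2. Gfap lost the call without B6 library 2 or D2 library 2, and Slc4a4 without D2 library 3. Slc1a2 was called lower without B6 library 3. Aqp4 was called higher without B6 library 2. Slc1a2 has near-identical copies elsewhere in the annotation.

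For glutamate and GABA handling, 4 of the 19 tested members were higher and 3 lower in D2 (DESeq2 3 and 3, without overlap 4 and 1 of 16), and the list's median log2 fold change was 0.06 beside -0.0034 over all transcripts tested. The glycine transporter Slc6a9 stood at 12 and 11.6 CPM in the B6 libraries, against 29.7 and 26.7 CPM in those of D2 (log2 fold change 1.25, standard error 0.21, adjusted p = 6.86e-05). Slc7a10, which carries D-serine and glycine, stood at 201 and 207 CPM in B6 against 287 and 301 CPM in D2 (0.53 ± 0.10). The GABA transporter Slc6a11 stood at 281 and 222 CPM in B6 against 322 and 387 CPM in D2 (0.50 ± 0.11). The glutamine transporter Slc38a3 was the fourth, at 0.58 ± 0.14 on the log2 scale. On the lower side stood Glul, the glutamine synthetase that converts captured glutamate, at 624 and 558 CPM in B6 against 332 and 340.2 CPM in D2 (log2 fold change -0.81, standard error 0.09, adjusted p = 2.89e-07). Slc7a11, the cystine-glutamate exchanger, stood at 558 and 461 CPM in B6 against 334 and 327 CPM in D2 (-0.62 ± 0.10). Maob, which degrades monoamines, had a log2 fold change of -0.67 ± 0.14, which was -0.41 without B6 library 2 and -0.89 without B6 library 3. The glutamate transporters Slc1a2 and Slc1a3 were both among the 12 members not called. Glutamate and GABA genes had 2 called higher and 3 lower without D2 library 3. Slc38a3 was not called by DESeq2. Slc6a11 and Slc38a3 lost their calls without D2 library 3. Slc1a2 was called lower without B6 library 3. Glul, Slc7a11 and Slc1a3 overlap another annotated gene on the same strand. Glul, Slc1a2 and Slc1a3 have near-identical copies elsewhere in the annotation.

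In the list for potassium, water and ion balance, 5 of the 23 tested members were higher and 4 lower in D2 (DESeq2 2 and 3, without overlap 5 and 3 of 20). A refit without same-strand overlaps called 3 higher and 3 lower of 20. A fit with no filter beyond counts in both strains called 3 and 4 of 23. Kcnj10 encodes Kir4.1, the inward rectifier through which astrocytes take up potassium, and stood at 69.1 and 77.7 CPM in the B6 libraries, against 123 and 149.8 CPM in those of D2 (log2 fold change 0.89, standard error 0.12, adjusted p = 5.58e-06). Its partner subunit Kcnj16 also rose (0.55 ± 0.13). The pump subunit Atp1b2 rose by 0.33 on the log2 scale. Besides Gjb6, the chloride channel Clcn2 and the calcium-permeable channel Trpm3 fell by 0.50 and 0.33. The potassium-dependent sodium-calcium exchanger Slc24a4 stood at 59.3 and 41.5 CPM in B6 against 12.6 and 4.82 CPM in D2 (-2.54 ± 0.25). Ion and water genes had 8 called higher and 4 lower without B6 library 2, 3 and 5 without B6 library 3, 3 and 2 without D2 library 2, and 2 and 3 without D2 library 3. Kcnj16, Atp1b2 and Clcn2 were not called by DESeq2. Atp1b2 and Clcn2 lost their calls without B6 library 3, D2 library 2 or D2 library 3, and Trpm3 without D2 library 2. Trpm3 overlaps another annotated gene on the same strand. Kcnj10 has near-identical copies elsewhere in the annotation.

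Receptors for transmitters were called in both directions, with 7 higher and 6 lower of 26 tested (DESeq2 3 and 3, without overlap 4 and 3 of 17). Grm3, the main group II metabotropic glutamate receptor of adult astrocytes, stood at 1132 and 1183 CPM in the B6 libraries, against 1653 and 1794 CPM in those of D2 (log2 fold change 0.57, standard error 0.09, adjusted p = 1.46e-05). Adra1a, an alpha-1 adrenergic receptor, stood at 46 and 50.3 CPM in B6 against 85.8 and 93.6 CPM in D2 (0.90 ± 0.13), and Adra1b had a log2 fold change of 1.22 ± 0.28. Grm5, the kainate receptor subunit Grik4, the GABA-A subunit Gabrg1 and the endothelin receptor Ednrb completed this side, at 0.36 to 0.66. The lower ones were the AMPA receptor subunits Gria1, at 225 and 246 CPM in B6 against 123 and 103 CPM in D2 (-1.06 ± 0.11), and Gria4 (-0.62 ± 0.17), with the muscarinic receptor Chrm3 (-1.22 ± 0.27), the mu-opioid receptor Oprm1 (-1.15 ± 0.39), Grm7 and Gabra2. Transmitter receptors had 4 called higher and 2 lower without D2 library 3. Adra1b, Grm5, Grik4, Gabrg1, Gria4, Chrm3 and Oprm1 were not called by DESeq2. Grm5 and Gabra2 lost their calls without D2 library 2 or D2 library 3, Gabrg1 without B6 library 3 or D2 library 3, Ednrb, Gria4 and Grm7 without D2 library 3, and Oprm1 without B6 library 2 or D2 library 3. Grm3, Grm5, Grik4, Gria4, Chrm3 and Grm7 overlap another annotated gene on the same strand. Gabra2 has near-identical copies elsewhere in the annotation. Neuronal marker sums were also lower in D2, by the values given above, and the part of neuronal RNA in these decreases was not tested.

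**Figure D3:**
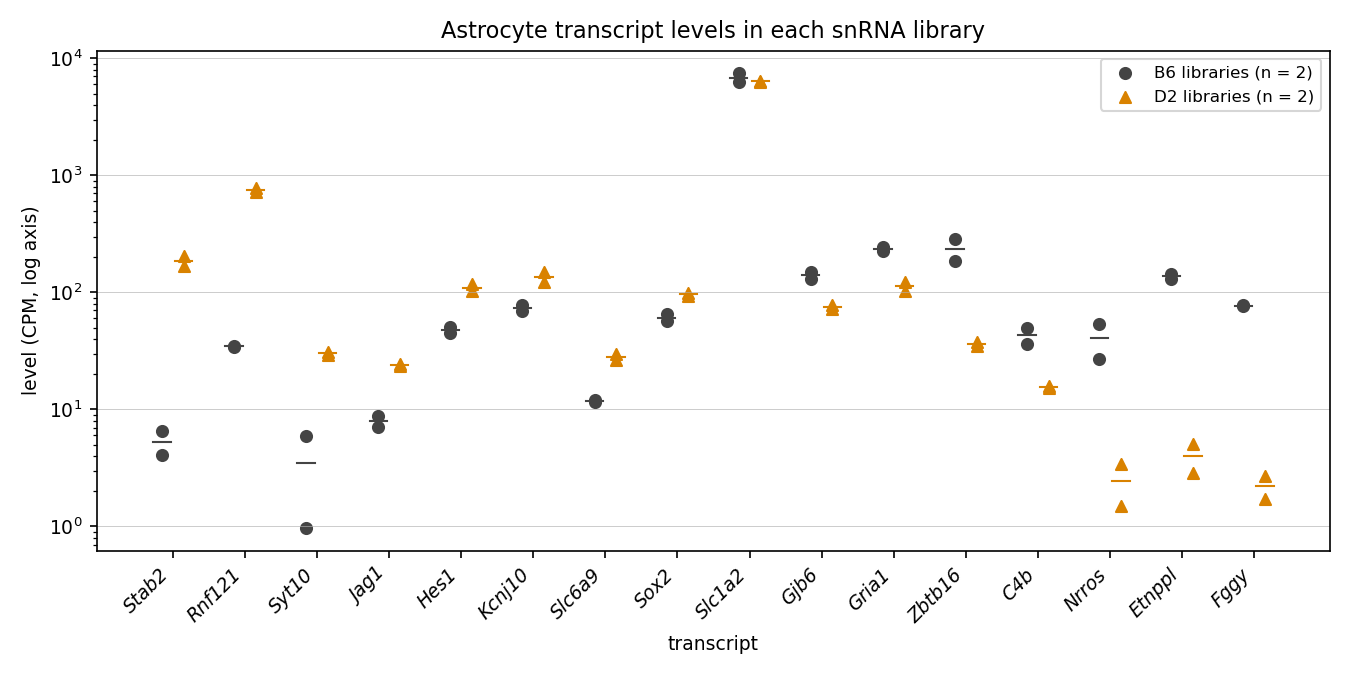
Levels of 16 named transcripts in each of the 4 astrocyte libraries, in CPM on a log axis, with circles for B6, triangles for D2 and a bar at each strain's mean. For Slc1a2 the strains overlap, with 7422 and 6250.0 CPM in B6 against 6373 and 6328 CPM in D2, whereas for the other 15 transcripts the strains are apart.

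Among genes of cholesterol and lipid metabolism, 2 of the 40 tested members were higher and 10 lower in D2 (DESeq2 0 and 4, without overlap 2 and 8 of 31), with a median of -0.16. A refit without same-strand overlaps called 1 higher and 9 lower of 31. A fit with no filter beyond counts in both strains called 1 and 8 of 40. Among the lower members 7 are enzymes of sterol synthesis. Idi1, the isomerase that makes the isoprene building blocks, stood at 46 and 49.7 CPM in B6 against 22.5 and 26.1 CPM in D2 (-0.97 ± 0.16) and Cyp51, lanosterol demethylase, at 114 and 105 CPM in B6 against 73.8 and 66.7 CPM in D2 (-0.64 ± 0.12). Fdps fell by 0.77 on the log2 scale, Fdft1 by 0.43, Sqle by 0.41 and Lss by 0.91. All 13 sterol enzymes in the list had a negative log2 fold change, with a median of -0.41, a subgroup formed after the values were seen. Acsl3, which activates long-chain fatty acids, stood at 1033 and 914 CPM in the B6 libraries, against 543 and 520.4 CPM in those of D2 (log2 fold change -0.87, standard error 0.09, adjusted p = 5.65e-08). Acot11 and Apod were also lower (-0.84 ± 0.12 and -0.68 ± 0.19). The higher members were Lcat, which esterifies cholesterol on lipoproteins, and the elongase Elovl5 (0.54 ± 0.18 and 0.59 ± 0.13). Apoe, the main lipid carrier secreted by astrocytes, stood at 6252 and 4086 CPM in B6 against 6063 and 6818 CPM in D2 and was not called (adjusted p = 0.0618). Lipid genes had 4 called higher and 12 lower without B6 library 2, and 3 and 7 without D2 library 2. Fdps, Fdft1, Sqle, Lss, Apod, Lcat and Elovl5 were not called by DESeq2. Fdps lost the call without B6 library 3, Fdft1 without B6 library 3, D2 library 2 or D2 library 3, Sqle without B6 library 2 or D2 library 2, Apod without B6 library 3 or D2 library 2, and Lcat without B6 library 3 or D2 library 3. Apoe was called higher without B6 library 2 or D2 library 2. Fdps and Acsl3 overlap another annotated gene on the same strand. Idi1, Fdps and Fdft1 have near-identical copies elsewhere in the annotation.

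Of the genes of glucose, glycogen and lactate, 8 of the 35 tested members were higher and 3 lower in D2 (DESeq2 4 and 1, without overlap 5 and 3 of 27). Slc2a1, the glucose transporter GLUT1, stood at 32.4 and 29.2 CPM in the B6 libraries, against 54.9 and 60.2 CPM in those of D2 (log2 fold change 0.90, standard error 0.15, adjusted p = 5.61e-05). The first glycolytic enzyme Hk1 and the enolase Eno1 rose by 0.61 and 0.55. Ugp2, which makes the sugar donor for glycogen, rose by 0.53, and Pdk4 and Pcx, which steer pyruvate, by 0.58 and 0.37. Phkg1 and Ppp1r3c, regulators of glycogen, were called higher as well. The lower members were the aldolase Aldoc (-0.46 ± 0.10), the glycogen branching enzyme Gbe1 (-0.73 ± 0.16) and the liver-type glycogen phosphorylase Pygl (-1.28 ± 0.31). Glucose and glycogen genes had 4 called higher and 1 lower without D2 library 3. Eno1, Pdk4, Pcx, Ppp1r3c, Gbe1 and Pygl were not called by DESeq2. Eno1 lost the call without B6 library 2, Pdk4 without B6 library 3 or D2 library 3, Pcx without B6 library 2, D2 library 2 or D2 library 3, Phkg1 without D2 library 2 or D2 library 3, and Ppp1r3c, Aldoc and Pygl without D2 library 3. Slc2a1, Ugp2 and Phkg1 overlap another annotated gene on the same strand. Eno1, Pdk4 and Phkg1 have near-identical copies elsewhere in the annotation.

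Genes of Notch, BMP, Hedgehog, Wnt and FGF signalling included 10 higher and 4 lower members among 39 tested (DESeq2 5 and 2, without overlap 7 and 2 of 28). A fit with no filter beyond counts in both strains called 9 and 2 of 41. The Notch ligand Jag1 stood at 7.13 and 8.81 CPM in the B6 libraries, against 24.3 and 23.6 CPM in those of D2 (log2 fold change 1.58, standard error 0.24, adjusted p = 1.77e-05). Hes1, the transcriptional repressor that Notch induces, stood at 44.7 and 50.6 CPM in B6 against 117 and 102 CPM in D2 (1.20 ± 0.13). The receptors Notch1 and Notch3 rose by 0.42 and 0.76, and the target Hes5 by 0.33. From the Hedgehog pathway the receptor Ptch1 and the decoy Hhip were higher (0.37 ± 0.10 and 1.11 ± 0.25). Tcf7l1, Etv4 and Etv5 were the other higher members. The lower ones were the BMP targets Id2 and Id4, the Wnt effector Lef1 and the receptor Fgfr2, at -0.43, -0.50, -0.55 and -0.52. Signalling genes had 10 called higher and 2 lower without B6 library 2, 9 and 6 without B6 library 3, and 7 and 1 without D2 library 3. Notch1, Notch3, Hes5, Hhip, Etv5, Id2 and Lef1 were not called by DESeq2. Notch1, Notch3, Etv4 and Id4 lost their calls without D2 library 3, Hes5 without B6 library 2 or D2 library 2, Ptch1 without D2 library 2, Etv5 without B6 library 3 or D2 library 3, Id2 without B6 library 2 or D2 library 3, and Lef1 without B6 library 2, D2 library 2 or D2 library 3. Notch1, Ptch1, Tcf7l1, Lef1 and Fgfr2 overlap another annotated gene on the same strand. Etv5 has near-identical copies elsewhere in the annotation.

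Of the transcription factors of astrocytes, 11 of 37 tested members were called higher in D2 and none lower (DESeq2 7 and 0, without overlap 9 and 0 of 29), with a median of 0.16. Sox2 stood at 56.7 and 65.1 CPM in the B6 libraries, against 99 and 93.6 CPM in those of D2 (log2 fold change 0.66, standard error 0.12, adjusted p = 0.000317). Sox8 and Sox9, of the gliogenic SoxE family, rose by 0.67 and 0.52. Pax6, Nfic, Hopx, Prdm16 and Pou3f2 rose by 0.32 to 0.58. The glucocorticoid receptor Nr3c1 stood at 168 and 189 CPM in B6 against 233 and 261 CPM in D2 (0.47 ± 0.10). Npas3 and Rorb were the other higher members. Klf15, a glucocorticoid-induced factor, had a log2 fold change of -0.43 ± 0.17 and was not called (adjusted p = 0.0722). Transcription factors had 13 called higher and 1 lower without B6 library 2, 9 and 1 without D2 library 2, and 6 and 0 without D2 library 3. Sox8, Nfic, Prdm16 and Pou3f2 were not called by DESeq2. Nfic lost the call without D2 library 2, Prdm16 without B6 library 3, D2 library 2 or D2 library 3, Pou3f2 without B6 library 3 or D2 library 3, and Nr3c1, Npas3 and Rorb without D2 library 3. Klf15 was called lower without B6 library 2 or D2 library 2. Sox2 and Nfic overlap another annotated gene on the same strand. Pax6 and Pou3f2 have near-identical copies elsewhere in the annotation.

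**Figure D4:**
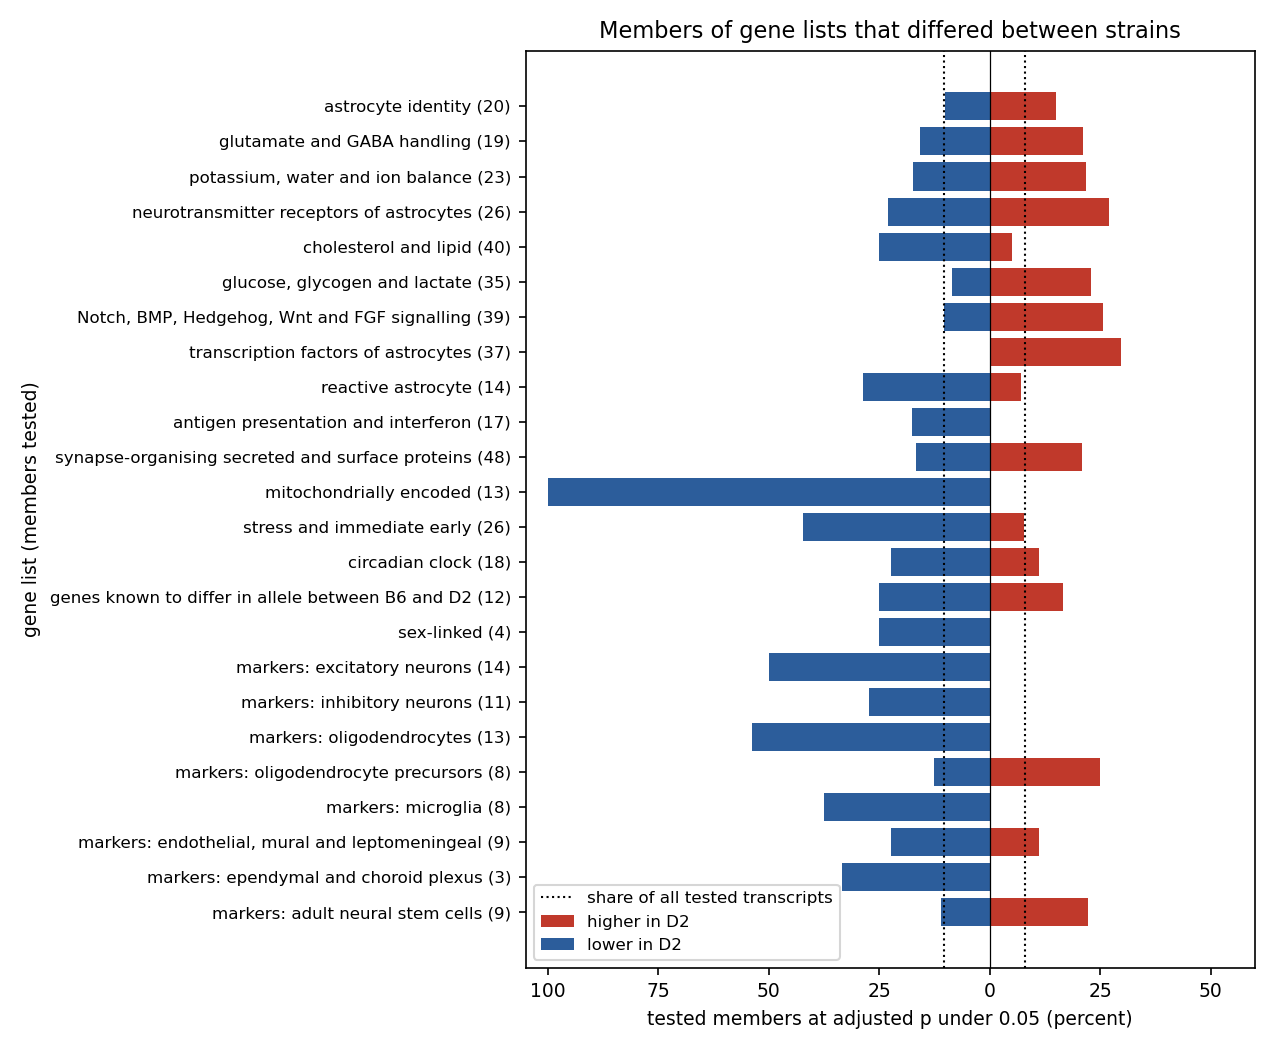
Share of the tested members of each gene list that were called higher (right of 0) or lower (left of 0) in D2 astrocytes, in percent on the horizontal axis, with the list size beside its name. Dotted lines mark the 8.03% higher and 10.4% lower over all 13753 transcripts. The list of transcription factors has a bar to the right only, while the lists with a bar to the left only include those of mitochondrially encoded transcripts and of excitatory neuron, oligodendrocyte and microglial markers.

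Among genes induced in stress or by activity, 2 of the 26 tested members were higher and 11 lower in D2 (DESeq2 1 and 5, without overlap 2 and 8 of 21), with a median of -0.28. Zbtb16, a zinc-finger repressor, stood at 283 and 186 CPM in the B6 libraries, against 37.5 and 34.9 CPM in those of D2 (log2 fold change -2.70, standard error 0.16, adjusted p = 9.71e-13), and Tsc22d3, the leucine zipper GILZ, at 142 and 112 CPM in B6 against 48 and 47.4 CPM in D2 (-1.41 ± 0.13). Fkbp5, a co-chaperone that restrains the glucocorticoid receptor, stood at 65.2 and 18.9 CPM in B6 against 9.3 and 5.39 CPM in D2. Its B6 libraries differed widely from each other. The kinase Sgk1 and Ddit4, an inhibitor of mTORC1, fell by 1.28 and 1.22. Dusp1, Mt1 and Mt2, which glucocorticoids also induce, were not called, with log2 fold changes of 0.17 ± 0.28, -0.20 ± 0.15 and -0.33 ± 0.18. The chaperone Hspa8 stood at 101 and 131 CPM in B6 against 46.5 and 47.1 CPM in D2 (-1.31 ± 0.14), and Dnaja1 and Hsp90aa1 were lower by 0.75 and 0.46. The immediate early genes Arc, Nr4a1 and Nr4a3 were lower (-1.96 ± 0.61, -1.20 ± 0.42 and -1.98 ± 0.53), whereas Ier5 and Btg2 were higher (1.11 ± 0.26 and 1.08 ± 0.18). Stress and activity genes had 2 called higher and 7 lower without D2 library 3. Fkbp5, Sgk1, Hsp90aa1, Arc, Nr4a1, Nr4a3 and Ier5 were not called by DESeq2. Hsp90aa1 lost the call without B6 library 3 or D2 library 3, Arc without B6 library 2, B6 library 3 or D2 library 3, Nr4a1 without B6 library 2, D2 library 2 or D2 library 3, and Nr4a3 without B6 library 2, B6 library 3, D2 library 2 or D2 library 3. Mt1 was called lower without B6 library 3. Mt2 was called lower without B6 library 3 or D2 library 2. Arc, Nr4a1 and Nr4a3 passed the filter through B6 alone. Fkbp5, Hspa8 and Dnaja1 overlap another annotated gene on the same strand. Zbtb16, Fkbp5, Hspa8, Dnaja1 and Hsp90aa1 have near-identical copies elsewhere in the annotation.

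Clock genes were called in 6 of 18 cases, 2 higher and 4 lower (DESeq2 1 and 3, without overlap 2 and 3 of 15). The light- and glucocorticoid-responsive repressors Per1, at 61.6 and 37.4 CPM in B6 against 27.3 and 20.4 CPM in D2 (-1.05 ± 0.20), and Per2, at 38.6 and 51.9 CPM in B6 against 18.9 and 23.3 CPM in D2 (-1.10 ± 0.18), were both lower. Npas2, a partner of Bmal1, was lower by 0.68 and Nr1d2 by 0.45. Bhlhe40 and Rorb were higher (0.56 ± 0.14 and 0.35 ± 0.08). The clock genes had 1 called higher and 5 lower without B6 library 2, 3 and 3 without B6 library 3, 1 and 3 without D2 library 2, and 1 and 4 without D2 library 3. Nr1d2 and Bhlhe40 were not called by DESeq2. Nr1d2 lost the call without B6 library 3 or D2 library 2, Bhlhe40 without B6 library 2 or D2 library 2, and Rorb without D2 library 3. Npas2 overlaps another annotated gene on the same strand.

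In the list of reactive astrocyte genes, 36 members were sought, 33 were in the table and 14 were tested, of which 1 was higher and 4 lower (DESeq2 1 and 1, without overlap 1 and 3 of 12). C4b, a complement component, stood at 49.9 and 35.9 CPM in the B6 libraries, against 15.9 and 15.3 CPM in those of D2 (log2 fold change -1.45, standard error 0.19, adjusted p = 2.81e-06). Osmr, the oncostatin M receptor, and Ggta1 fell by 1.05 and 1.38. The insulin-like growth factor binding protein Igfbp2 was the one member higher, at 17.8 and 14.5 CPM in B6 against 40.5 and 59.9 CPM in D2 (1.64 ± 0.20). Among 17 genes of antigen presentation and interferon response none was higher and 3 were lower (DESeq2 0 and 1, without overlap 0 and 2 of 13). Over all transcripts tested 18.5% were called, 8.03% higher and 10.4% lower, so that 3 of 17 lies close to that share. Irf1 and H2-T22 fell by 1.81 and 1.03. Reactive astrocyte genes had 2 called higher and 2 lower without B6 library 2, and 2 and 4 without D2 library 2. Antigen presentation and interferon genes had 0 called higher and 1 lower without B6 library 3, 0 and 1 without D2 library 2, and 0 and 2 without D2 library 3. Osmr, Ggta1, Irf1 and H2-T22 were not called by DESeq2. Osmr lost the call without B6 library 2 or D2 library 3, Irf1 without B6 library 3 or D2 library 2, and H2-T22 without B6 library 3, D2 library 2 or D2 library 3. Irf1 passed the filter through B6 alone. Ggta1 overlaps another annotated gene on the same strand. C4b and H2-T22 have near-identical copies elsewhere in the annotation. Microglial marker sums were lower in D2 as well, and their part in these decreases was not tested.

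Secreted and surface proteins that organise synapses were called higher in 10 and lower in 8 of 48 cases (DESeq2 7 and 7, without overlap 6 and 4 of 26). Thbs4, a thrombospondin, stood at 50.9 and 58.2 CPM in the B6 libraries, against 13.5 and 12.5 CPM in those of D2 (log2 fold change -2.07, standard error 0.18, adjusted p = 1.63e-09). Tenm4, a teneurin adhesion protein, stood at 159.8 and 160.1 CPM in B6 against 296 and 329.7 CPM in D2 (0.97 ± 0.10). The phagocytic bridge protein Mfge8 and the cytokine Il33 rose by 0.52 and 0.60, and Sparc, an antagonist of synapse formation, fell by 0.62. The value of Mfge8 was 0.74 without B6 library 2 and 0.32 without B6 library 3. That of Il33 was 0.82 without D2 library 2 and 0.35 without D2 library 3. Cntnap2 and Tnr, lower by 1.18 and 1.57, are also known from neurons and oligodendrocyte precursors, respectively, and the part of such cells was not tested. Vcan, like Tnr a member of the list of oligodendrocyte precursor markers, was called higher (0.41 ± 0.14). Of the 8 tested members of that list, Vcan and Olig2 (0.94) were called higher and Tnr lower, with a median of 0.05. Synapse-organising proteins had 15 called higher and 7 lower without B6 library 2, and 5 and 7 without D2 library 3. Il33, Vcan and Olig2 were not called by DESeq2. Il33 lost the call without D2 library 3, and Vcan without B6 library 2 or D2 library 3. Efnb1 passed the filter through B6 alone. Tenm4, Cntnap2 and Tnr overlap another annotated gene on the same strand. Cntnap2 has near-identical copies elsewhere in the annotation.

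Genes known from other work to carry different alleles in B6 and D2 mice were called in 5 of 12 cases, 2 higher and 3 lower (DESeq2 2 and 2, without overlap 2 and 2 of 8). Alad, a heme synthesis enzyme, and its neighbour Hdhd3, which share a segment of chromosome 4 known to be duplicated in D2, were the higher pair. Alad stood at 3.24 and 4.4 CPM in B6 against 12.9 and 17 CPM in D2 (log2 fold change 1.96, standard error 0.32, adjusted p = 6.05e-05) and Hdhd3 at 2.59 and 1.26 CPM in B6 against 10.8 and 11.9 CPM in D2 (2.55 ± 0.40). Gpnmb, which carries a stop codon in D2, fell by 1.62, Btbd9 by 0.62 and Gabra2 by 0.39. Of 4 tested sex-linked genes Ddx3y was lower (-0.47 ± 0.13). Genes of differing alleles had 4 called higher and 2 lower without B6 library 2, 3 and 2 without B6 library 3, 3 and 1 without D2 library 2, and 3 and 1 without D2 library 3. Gpnmb and Ddx3y were not called by DESeq2. Gpnmb lost the call without B6 library 2, B6 library 3, D2 library 2 or D2 library 3, Gabra2 without D2 library 2 or D2 library 3, and Ddx3y without B6 library 3, D2 library 2 or D2 library 3. Gpnmb passed the filter through B6 alone. Hdhd3 passed the filter through D2 alone. Btbd9 and Ddx3y overlap another annotated gene on the same strand. Btbd9 and Gabra2 have near-identical copies elsewhere in the annotation.

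Markers of other cell types completed the lists. Those of excitatory neurons were lower in 7 of 14 cases (DESeq2 0 and 4, without overlap 0 and 1 of 7), of inhibitory neurons in 3 of 11 (DESeq2 0 and 2, without overlap 0 and 1 of 5) and of oligodendrocytes in 7 of 13 (DESeq2 0 and 4, without overlap 0 and 6 of 12), and none of these was higher. The myelin gene Mbp stood at 168 and 142 CPM in B6 against 75.9 and 65 CPM in D2 (-1.14 ± 0.12) and Kcnip4, a neuronal potassium channel partner, at 358 and 378 CPM in B6 against 179.8 and 167 CPM in D2 (-1.09 ± 0.10). For oligodendrocyte precursors 2 of 8 were higher and 1 lower (DESeq2 0 and 1, without overlap 2 and 0 of 5), and for microglia 3 of 8 were lower (DESeq2 0 and 1, without overlap 0 and 3 of 6). Endothelial, mural and leptomeningeal markers were called higher in 1 and lower in 2 of 9 cases (DESeq2 0 and 1, without overlap 1 and 2 of 9), ependymal and choroid plexus markers lower in 1 of 3 (DESeq2 0 and 0, without overlap 0 and 1 of 2), and adult neural stem cell markers higher in 2 and lower in 1 of 9 (DESeq2 1 and 0, without overlap 2 and 0 of 8). Excitatory markers had 0 called higher and 3 lower without D2 library 3. Inhibitory markers had 1 called higher and 3 lower without B6 library 3, and 0 and 2 without D2 library 3. Oligodendrocyte markers had 0 called higher and 4 lower without B6 library 2, and 0 and 4 without D2 library 3. Precursor markers had 1 called higher and 2 lower without B6 library 2, 2 and 3 without D2 library 2, and 1 and 1 without D2 library 3. Microglial markers had 0 called higher and 2 lower without B6 library 3, 0 and 2 without D2 library 2, and 0 and 2 without D2 library 3. Vascular markers had 1 called higher and 3 lower without B6 library 2, 0 and 2 without B6 library 3, 0 and 3 without D2 library 2, and 1 and 1 without D2 library 3. Stem cell markers had 2 called higher and 2 lower without B6 library 2, 1 and 1 without B6 library 3, 1 and 2 without D2 library 2, and 2 and 0 without D2 library 3. Opalin, C1qc and Tek passed the filter through B6 alone. Kcnip4 overlaps another annotated gene on the same strand.

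Accessible chromatin gave a second readout from other libraries of the same strains. The astrocyte columns were shallow, with 350988 and 486069 counts in B6 and 650602 and 748227 counts in D2. Of 39351 peaks with at least 10 counts, 78 (0.198%) differed between the strains, 39 (0.0991%) in each direction, and DESeq2 called 6. A replicate block gave 7, and leaving out any 1 library also lowered the count, as given at the end. Of the 78, 31 reached 10 counts through B6 alone and 25 through D2 alone. Of 11701 peaks within 1000 bases of the start of a tested transcript, 15 (0.128%) were called. The transcript was called in the same direction at 11 of these, in the other at 2 (Ngef and G530011O06Rik), and not called at 2 (Gm45609 and Tuba1b). Of the 15 peaks 8 reached 10 counts through 1 strain alone, those at Ngef, Gm13274, Fggy, B230311B06Rik, 9430037G07Rik, 4930481A15Rik and G530011O06Rik through B6 and that at Ttc12 through D2. They include 6 of the 11 of shared direction, so that these counts are a description only. The peaks at Gm13274, 9430037G07Rik and G530011O06Rik held no count in D2. Another peak near the start of B230311B06Rik, at chr7:118593048-118594623, was deeper and not called (log2 fold change 0.11). It held 23 and 33 counts in B6 and 47 and 52 in D2. At the transcripts, Gm13274, Fggy, B230311B06Rik, 9430037G07Rik and 4930481A15Rik passed their filter through B6 alone, and Hdhd3 and G530011O06Rik through D2 alone. Among them, the calls of G530011O06Rik, B230311B06Rik and 9430037G07Rik were lost in DESeq2, and Gm13274 had no adjusted p there. Gm13274 and B230311B06Rik lost theirs with any of the 4 libraries left out, G530011O06Rik without B6 library 2 or D2 library 2, and 9430037G07Rik without D2 library 2. Of the 34 transcripts named by size, 21 had a peak at their start and 2 of these peaks were called. Over the start of Sfi1 the peak at chr11:3192223-3193882 held 10 and 16 counts in B6 and 300 and 278 in D2 (log2 fold change 3.76, adjusted p = 1.21e-74), in the same direction as the transcript. Over the start of Fggy the peak at chr4:95556791-95558977 held 21 and 24 counts in B6 and 3 and 1 in D2 (log2 fold change -4.10). The peak at Alad held 15 and 10 counts against 38 and 58, and that at Hdhd3 12 and 20 against 76 and 80, with log2 fold changes of 1.22 and 1.57. Ttc12, a cilium assembly gene, had 2 and 7 counts against 31 and 28 (log2 fold change 1.99), beside transcript levels of 10.4 and 15.4 CPM in B6 against 63.9 and 65.5 CPM in D2. At Rnf121 the start peak held 19 and 26 counts in B6 and 30 and 30 in D2 and was not called. At Etnppl it held 2 and 5 against 1 and 3, too few to show a difference.

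**Figure D5:**
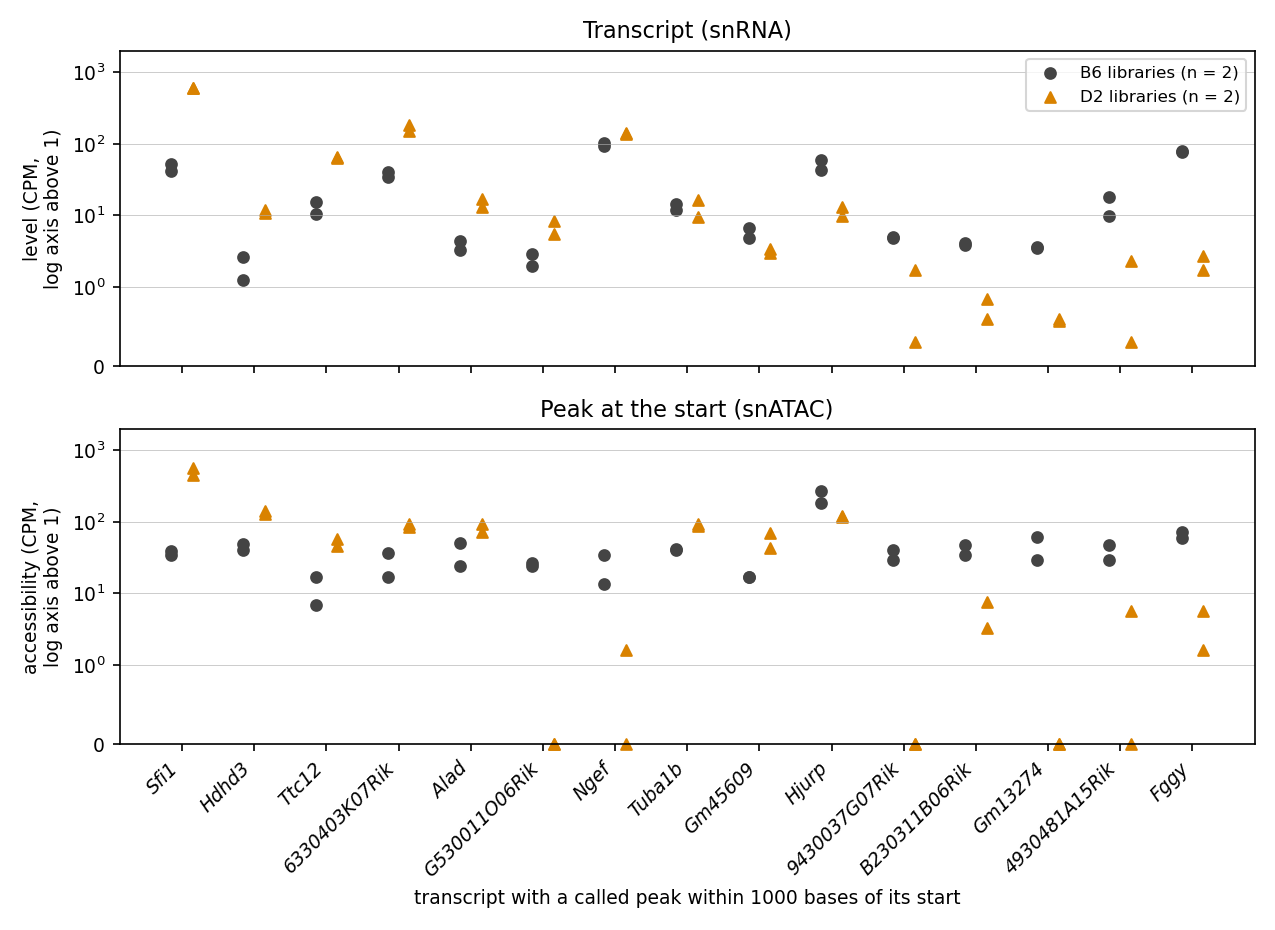
The 15 transcripts with a called peak near their start, ordered by log2 fold change of the transcript. Upper panel, transcript levels, and lower panel, accessibility of the peak, each in CPM on an axis that is linear below 1 and logarithmic above, with 2 circles for B6 and 2 triangles for D2. At Sfi1 the D2 points lie above the B6 points in both panels and at Fggy below them in both, whereas at Ngef and G530011O06Rik the panels point in opposite directions.

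The 250 bases before the start of Fggy, Alad and Ttc12, where transcript and peak differed in the same direction, though at Fggy both readouts and at Ttc12 the peak passed the filter through 1 strain alone, are shown 5′ to 3′ on the gene's strand. They are RefSeq sequence of GRCm38.p6, which is of B6 origin, with every CG dinucleotide in capitals. They lie at chr4:95557257-95557506 (plus strand), chr4:62520064-62520313 (minus) and chr9:49486226-49486475 (minus), and none overlaps an annotated exon. D2 differences within them were not analysed here.
Fggy: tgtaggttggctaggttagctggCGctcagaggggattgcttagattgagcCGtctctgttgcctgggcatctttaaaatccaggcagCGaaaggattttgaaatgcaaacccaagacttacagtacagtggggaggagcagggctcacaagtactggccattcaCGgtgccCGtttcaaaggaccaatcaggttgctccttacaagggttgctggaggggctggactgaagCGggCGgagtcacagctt
Alad: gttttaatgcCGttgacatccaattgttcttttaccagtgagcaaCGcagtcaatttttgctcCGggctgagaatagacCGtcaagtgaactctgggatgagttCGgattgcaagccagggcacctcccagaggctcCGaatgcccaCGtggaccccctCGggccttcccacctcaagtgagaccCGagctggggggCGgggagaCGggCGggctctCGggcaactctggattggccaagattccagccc
Ttc12: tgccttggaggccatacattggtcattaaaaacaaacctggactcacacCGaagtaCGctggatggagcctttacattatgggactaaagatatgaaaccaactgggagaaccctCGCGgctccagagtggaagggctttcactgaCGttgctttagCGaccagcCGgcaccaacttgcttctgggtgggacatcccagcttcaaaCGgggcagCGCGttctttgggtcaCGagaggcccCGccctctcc
The letters CG, which read the same on both strands, occur 7 times at Fggy, 13 times at Alad and 12 times at Ttc12. Among the 32851 promoters of this length in the table the median was 6, 92.1% held at least 1, and 46.3%, 31.5% and 33.5% held at least as many as these 3. At 6330403K07Rik, where transcript and peak were also both higher in D2 (log2 fold changes 2.15 and 1.65), CG occurred 4 times. There 62.2% of promoters held at least as many, and that sequence is not shown. By symbol 10370 tested transcripts had such an entry. Sfi1 had none in this table.

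CpG dinucleotides are where DNA is methylated in mammals, and their density is a sequence measure the study used, there in windows across the genome. Here it was taken around gene starts. In the 2000 bases centred on the start, the median was 40 CpG per kb for 1090 transcripts higher in D2 (quartiles 23.5 and 55.5), 37 for 1411 lower (17.5 and 53.5) and 42 for 11074 not called (28 and 57). Without overlapping symbols these medians were 39.5, 33.5 and 41.5, and for protein-coding transcripts without overlap 42, 39 and 43. The differences between the sets were small beside the spread within each, and they are a description across transcripts. Among the transcripts named above, density ran widely, from 11.5 CpG per kb at Stab2 and 14.5 at Etnppl to 33.5 at Kcnj10, 86 at Hes1 and 85.5 at Sox2.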

How the data were processed

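Deposited tables held whole-number counts per gene symbol (RNA) and per peak (snATAC), summed by the authors over the nuclei of each cell type and library. Per the submitters' processing notes they ran Cell Ranger 6.0.2, Cell Ranger ATAC 2.0.0 and Seurat 4.0.5, and the reads of B6 went to mm10 and those of D2 to mm10 with D2 variants swapped in. Intronic reads were kept and doublets removed before deposit. Columns named a strain and a library number (2 or 3), and the labels number replicates 1 and 2, so columns were placed in strains only. Only the astrocyte columns were used, and 64 RNA and 56 snATAC columns of other cell types were not. Tables describing single nuclei were not used here.

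Counts of the astrocyte columns were tested with edgeR 4.0.16 (TMM scaling, default expression filter, quasi-likelihood F test, R 4.3.3), with Benjamini-Hochberg adjustment over all symbols tested and a threshold of 0.05. CPM are scaled by the TMM library sizes. Peaks needed 10 counts over the 4 libraries. DESeq2 1.42.0, other scalings, filters and symbol sets, and leaving out each library were tried as alternatives. The test code was tested on simulated data. Positions and overlaps came from GENCODE vM21 on GRCm38, near-identical copies from blastn 2.17.0, and promoter sequences from RefSeq.

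The members and the 24 gene lists were chosen with earlier results of these data known. Named transcripts were the 12 largest called changes in each direction with a mean of at least 10 CPM, libraries apart and no same-strand overlap, the 5 largest with an overlap, and in each list the 4 members with the highest CPM and the 4 with the smallest adjusted p. Others are named to account for the called members of a list. Some members of the lists are counted but not reported here by name.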

Additional observations from a re-analysis of the deposited data

How the results depend on the processing

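The count of 2539 transcripts was 2512 with RLE size factors, 2094 with no filter beyond counts in both strains and 2428 with at least 50 counts. It was 1030 in DESeq2, 1591 without same-strand overlaps, 1233 for protein-coding transcripts without overlaps (chosen after seeing the data), 4193 at an unadjusted p under 0.05 and 943 with an absolute log2 fold change over 1. Leaving out 1 library gave 1611 to 2302, lowest without D2 library 3. The 78 peaks were 6 in DESeq2, 43 with no filter beyond 1 count, 51 with at least 30 counts and 27 to 52 with 1 library left out, lowest without B6 library 3. The difference in median CpG density between higher and lower transcripts, 3 per kb in 2000 bases, was 6 in 1000 bases, 8 in 500 bases and 6 without overlapping symbols.

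The libraries of the strains share only a number. Deviations of same-numbered libraries correlated at -0.033 in RNA and at -0.0014 over the tested peaks. A replicate block gave 2775 transcripts and 7 peaks. The planned comparisons of the strain effect with oligodendrocyte precursors and dentate gyrus neurons, and the alternative that required counts in both strains over all cell types, are not reported. Columns could be placed in a strain only, and the astrocyte columns already account for every sample of a strain.

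Of 247 named transcripts no called one changed direction. DESeq2 lost the calls of 71, and leaving out a library those of 18 to 51, most without D2 library 3. The 34 named by size kept theirs under every alternative that gave a value, except Gm20743 in DESeq2. These 34 had been picked from the same data as the largest called changes with the libraries of the strains apart. That they kept their calls is therefore a description and no independent check. Where cause is not shown by the construction of an alternative, it was not tested. Chromatin depth limits calls at starts, and a peak not called shows no absence of a difference.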
